A study of Caenorhabditis elegans with 4 samples.

Results

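The epidermal nlp group of Caenorhabditis elegans comprises 8 genes, nlp-27 to nlp-34, chosen by gene name with earlier results of these data known. A probe carried the name of 6 of them (nlp-27 to nlp-32), out of 14958 named genes on the array, with 1 probe for each. No probe carried the name nlp-33 or nlp-34, and these genes are not analysed here. RNA of wild-type worms at L3, a larval stage before the gonad makes eggs, was hybridised in 4 numbered preparations to 4 two-colour DNA microarrays. The other channel of every array held a wild-type mixed reference RNA. The labels do not say what the reference was mixed from, how the worms were grown or whether each preparation was a culture of its own. The p-values therefore describe the spread among 4 preparations, possibly a technical one, and take no account of variation in the reference.

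The nlp genes were named as neuropeptide-like, but this group is known for expression in the epidermis, the layer that makes the cuticle. Their short glycine-rich and aromatic peptides belong to the defence of the skin: nlp-29 is the standard reporter of the response to the fungus Drechmeria coniospora and to wounding, and the nlp-31 product has antifungal activity in vitro. A G-protein and p38 MAP kinase pathway acting inside the epidermis switches nlp-29 on, through the STAT-like protein of sta-2. In the RefSeq gene order of WBcel235, nlp-34, nlp-31, nlp-30, nlp-29, nlp-28 and nlp-27 follow each other on chromosome V with 0 other protein-coding genes between them, nlp-33 lies elsewhere on chromosome V, and nlp-32 lies on chromosome III.

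All values are log2 ratios of the 2 channels, centred on each array's median. With unlabelled dyes, a direction of L3 over reference is likely but not settled: the array descriptions put L3 first, and the first channel held the reference. In this direction transcripts of the adult were low, as a check of the stage, with the yolk protein gene vit-5 at -6.32 ± 0.93, vit-2 at -5.78 ± 0.76 and the adult collagen gene col-19 at -3.54 ± 0.81 (SD, n = 4 each). The 4 arrays ran the same way, with Pearson correlations between 0.620 and 0.723 across probes for the 6 pairs. Precision is limited by the number of arrays, and how far each spot stood above background is not known, since intensities were not used here. In whole worms, fewer epidermal cells and less RNA per cell cannot be told apart.

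All 6 measured genes had a negative log2 ratio on 4 of 4 arrays, which held for 23.7% of the 19201 genes and probes measured on every array. In limma, 5 of the 6 were lower in L3 and 0 were higher at an adjusted p under 0.05, while 10.8% of the 19943 genes and probes tested were lower and 8.31% higher. At an unadjusted p under 0.05, 6 were lower and 0 higher, also with any 1 preparation left out, while 18.3% of all genes tested were lower and 16.9% higher with all 4. The median over the 6 genes was -1.52, against 0.02 over all genes tested. Members were chosen with earlier results of these data known, so the shares over all genes are for comparison and no independent support. Means ran between -2.35 for nlp-32 and -0.94 for nlp-27, so that 1.29% of all genes tested had a lower mean than nlp-32 and 8.08% a lower mean than nlp-27.

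**Figure D1:**
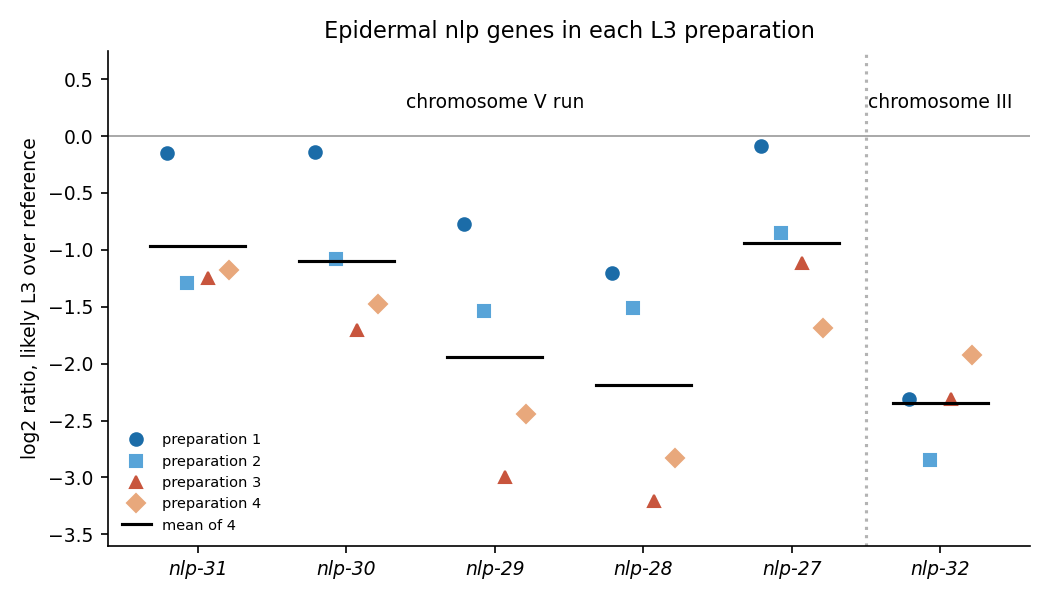
Log2 ratio (likely L3 over reference, y axis) of each epidermal nlp gene (x axis) in the 4 L3 preparations (points), with the mean of the 4 as a bar; the chromosome V genes stand in their order on the chromosome. All 24 points lie below 0, and preparation 1 is the point nearest to 0 in the 5 chromosome V genes.

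nlp-29, the gene most used to follow the skin's response, had log2 ratios of -0.77, -1.54, -2.997 and -2.44 in preparations 1 to 4. Every preparation was below 0, with preparation 1 nearest to 0 and preparation 3 the lowest. The mean was -1.94 ± 0.98 (SD, n = 4), which is 3.83-fold lower in L3 (limma adjusted p = 0.0152). Leaving out preparation 4 ended this call (adjusted p = 0.0572), as did using only preparations 1 and 2 (adjusted p = 0.0848).

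nlp-28, the neighbour of nlp-29, encodes a similar peptide and had nearly the same pattern, at -1.20, -1.51, -3.21 and -2.83 in preparations 1 to 4. Again preparations 3 and 4 were well below 1 and 2. With a mean of -2.19 ± 0.98 (SD, n = 4) it was 4.56-fold lower (limma adjusted p = 0.00994), the lowest mean in the chromosome V run, and the call held without any 1 preparation (adjusted p from 0.0173 to 0.0414).

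nlp-30 and nlp-31, on the other side of nlp-29, were lower by less. nlp-30 had log2 ratios of -0.14, -1.08, -1.70 and -1.47 in preparations 1 to 4, so preparation 1 was close to the reference and the other three were not. Its mean was -1.097 ± 0.69 (SD, n = 4), or 2.14-fold lower (limma adjusted p = 0.0370). nlp-31, the gene of the antifungal peptide, lay at -0.15, -1.29, -1.25 and -1.17 in preparations 1 to 4. Preparations 2 to 4 lay close together, and preparation 1 stood apart near 0. The mean of nlp-31 was -0.97 ± 0.55 (SD, n = 4), or 1.95-fold lower (limma adjusted p = 0.0333). Both calls were lost without preparation 2, 3 or 4, with adjusted p of 0.0857, 0.122 and 0.115 for nlp-30 and 0.0910, 0.116 and 0.103 for nlp-31.

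nlp-27, at the end of the run, did not pass the threshold. Its log2 ratios were -0.08, -0.85, -1.11 and -1.69 in preparations 1 to 4, with preparation 1 at the level of the reference and preparation 4 the lowest. The mean of -0.94 ± 0.67 (SD, n = 4) had a 95% interval of -1.57 to -0.30 and a limma adjusted p of 0.0550. Without preparation 1 the mean was -1.22 and passed (adjusted p = 0.0399), so all 6 genes were then lower.

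nlp-32, the member on chromosome III, had the lowest mean of the 6 and the smallest spread. It lay at -2.31, -2.85, -2.31 and -1.92 in preparations 1 to 4. No preparation came near 0, and preparation 4, the lowest for nlp-27, was here the highest. Its mean of -2.35 ± 0.38 (SD, n = 4) is 5.09-fold lower in L3 (limma adjusted p = 0.00112), and adjusted p was 0.00248 to 0.0126 with 1 preparation left out.

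**Figure D2:**
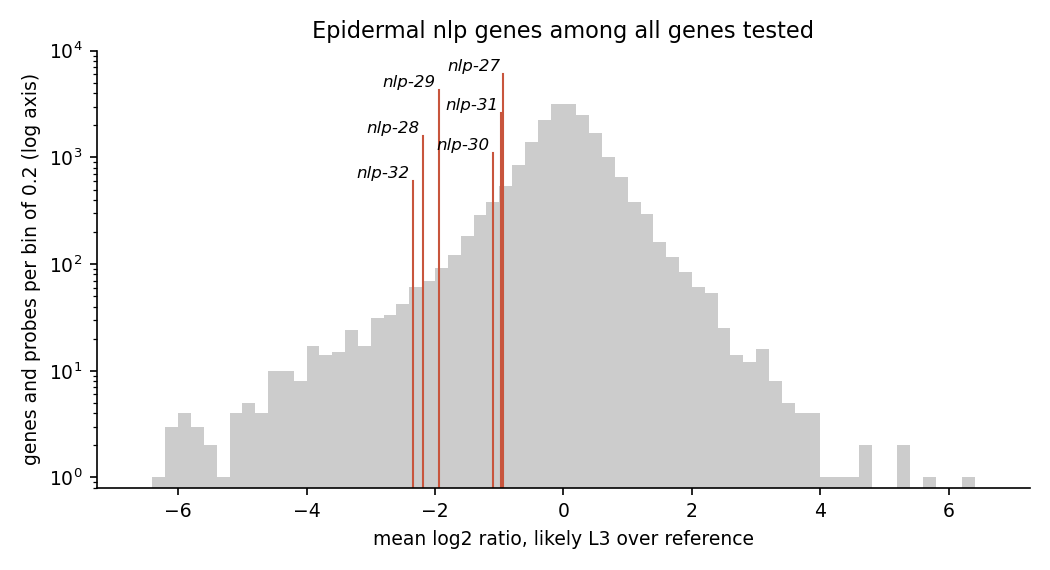
Number of genes and probes (y axis, log scale) by mean log2 ratio (x axis, likely L3 over reference, bins of 0.2) over the 19943 tested, with the means of the 6 epidermal nlp genes as red lines. nlp-32, nlp-28 and nlp-29 lie in the left tail between -2.35 and -1.94, and nlp-30, nlp-31 and nlp-27 between -1.097 and -0.94.

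In the order of means, nlp-32, nlp-28 and nlp-29 stood below nlp-30, nlp-31 and nlp-27. The gap between nlp-29 and nlp-30 was -0.84 ± 0.37 (SD, n = 4) and had the same sign on 4 of 4 arrays. Its exact two-sided sign-flip permutation test gave the smallest p that 4 arrays allow, which cannot pass the threshold, and 0.625 adjusted over the 5 neighbouring pairs. The other pairs did not keep 1 order on every array. nlp-32 was below nlp-28 in preparations 1 and 2, by -1.11 and -1.34, and above it in preparations 3 and 4, by 0.90 and 0.91. nlp-28 was below nlp-29 on 3 of 4 arrays (mean difference -0.25 ± 0.21), nlp-30 below nlp-31 on 2 (-0.13 ± 0.30) and nlp-31 below nlp-27 on 3 (-0.03 ± 0.40). Exact p-values of these 4 pairs lay between 0.25 and 0.875. These are differences between log2 ratios of different probes and say nothing about which transcript was more abundant.

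Among the 6 genes, the 5 of the chromosome V run differed more between preparations than nlp-32 did. Preparation 1 was the highest of the 4 in all 5 measured genes of the run, as it was in 24.5% of all genes with a negative mean. The median of the 5 genes was -0.15, -1.29, -1.70 and -1.69 in preparations 1 to 4. For nlp-28 and nlp-29 6.78% and 6.80% of all genes tested had a larger SD, and for nlp-32 46.7% did.

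The dates in the array titles put preparations 1 and 2 in one month and 3 and 4 in another, and what the dates mark is not given. Preparations 3 and 4 were both below 1 and 2 in 4 of the 6 genes (nlp-27, nlp-28, nlp-29 and nlp-30), a pattern found in 19.3% of all genes measured on 4 arrays. The mean of nlp-28 was -3.02 in preparations 3 and 4 and -1.36 in 1 and 2, and that of nlp-29 was -2.72 and -1.16. Corresponding means were -1.59 and -0.61 for nlp-30, -1.21 and -0.72 for nlp-31 and -1.40 and -0.47 for nlp-27. nlp-32 ran the other way, at -2.12 in preparations 3 and 4 and -2.58 in 1 and 2. The arrays also differed in spread, with a median absolute deviation of 0.38, 0.57, 0.38 and 0.28 over genes in preparations 1 to 4. The part of title month and array spread in these differences was not tested. Within preparations 1 and 2 alone, 2 members were lower in limma (nlp-28 and nlp-32), beside 4.39% of the 19484 genes and probes tested. Within preparations 3 and 4 alone 6 members were lower, beside 5.11% of 19660.

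The genes around the run were set beside it. The 10 protein-coding genes that flank it, 5 on each side, were all measured. In limma 2 were lower, 0 higher and 8 did not pass, beside 10.8% lower and 8.31% higher among all genes tested. Nearest to nlp-27 lies the uncharacterised K09D9.9, at -0.68 ± 0.35 (SD, n = 4, limma adjusted p = 0.0454), a call lost without any 1 preparation (adjusted p from 0.0670 to 0.138). On the other side the chemoreceptor genes str-83 and str-82 lay at 0.07 ± 0.52 and 0.30 ± 0.39 (SD, n = 4 each). Of the cytochrome P450 genes beyond them, cyp-34A9 was lower at -1.42 ± 0.61 (SD, n = 4, adjusted p = 0.0122, lost without preparation 1 or 3), while cyp-34A10 lay at 0.00 ± 0.15 (n = 4) and cyp-34A8 at 0.51 ± 0.69 (n = 3). The chemoreceptor genes srx-62, srh-8, srh-7 and srh-4 lay between -0.48 and 0.82 without passing. None of the flanking genes reached the means of nlp-28 and nlp-29, but cyp-34A9 had a lower mean than nlp-30, nlp-31 and nlp-27.

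**Figure D3:**
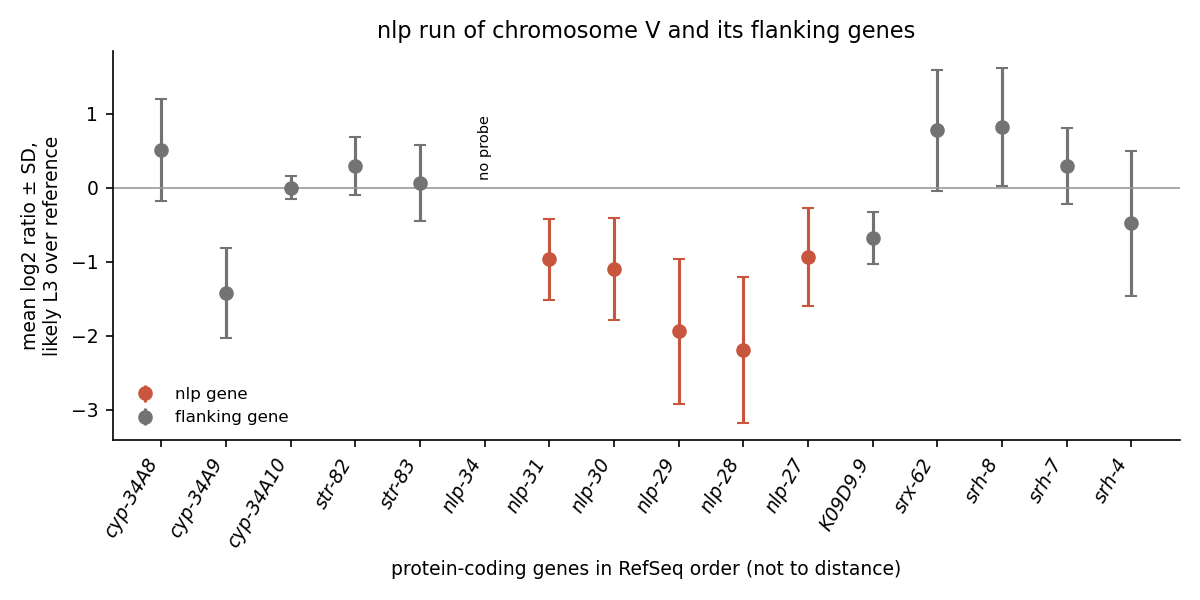
Mean log2 ratio ± SD over the preparations (y axis, likely L3 over reference) of the nlp genes of chromosome V (red) and the 5 protein-coding genes on each side (grey), in RefSeq gene order and not to distance on the x axis. The 5 measured nlp genes lie between -2.19 and -0.94; of the flanking genes only cyp-34A9, at -1.42, has a mean in that range, and nlp-34 has no probe.

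The caenacins (cnc genes) are the other peptide family of the epidermal response, related in sequence to the nlp group. cnc-2 is known to be switched on by infection through the TGF-beta-like ligand DBL-1 instead of the p38 pathway. Of 11 genes listed, 7 were measured. Among them 4 were lower, 0 higher and 3 did not pass in limma, with a median of -1.72, and 4 were lower and 1 higher at an unadjusted p under 0.05. Over all genes tested 10.8% were lower and 8.31% higher in limma (18.3% and 16.9% at an unadjusted p under 0.05). cnc-2 lay at -2.91, -5.01, -3.99 and -3.56 in preparations 1 to 4, a mean of -3.87 ± 0.88 (SD, n = 4) and 14.6-fold lower (limma adjusted p = 0.00134). cnc-1, at -2.24, -4.21, -2.75 and -3.18, averaged -3.10 ± 0.84 (adjusted p = 0.00223). Both were lowest in preparation 2 and highest in preparation 1.

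cnc-4 and cnc-7 were also lower, at -2.54 ± 0.67 and -1.72 ± 0.27 (SD, n = 4 each; limma adjusted p = 0.00236 and 0.00184). These 4 caenacin calls held without any 1 preparation, with adjusted p between 0.00171 and 0.0162. The family was not uniform: cnc-5 lay at -0.11 ± 0.15, and cnc-3 at 0.77, -0.06, 0.75 and 1.33 in preparations 1 to 4, with a mean of 0.70 ± 0.57 (adjusted p = 0.0902, and 0.0306 without preparation 2). cnc-8 lay at 2.30, 1.29, 0.24 and -0.29 in preparations 1 to 4, with a mean of 0.88 ± 1.15 (adjusted p = 0.184). cnc-8 lies on chromosome X and the other 6 on V.

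**Figure D4:**
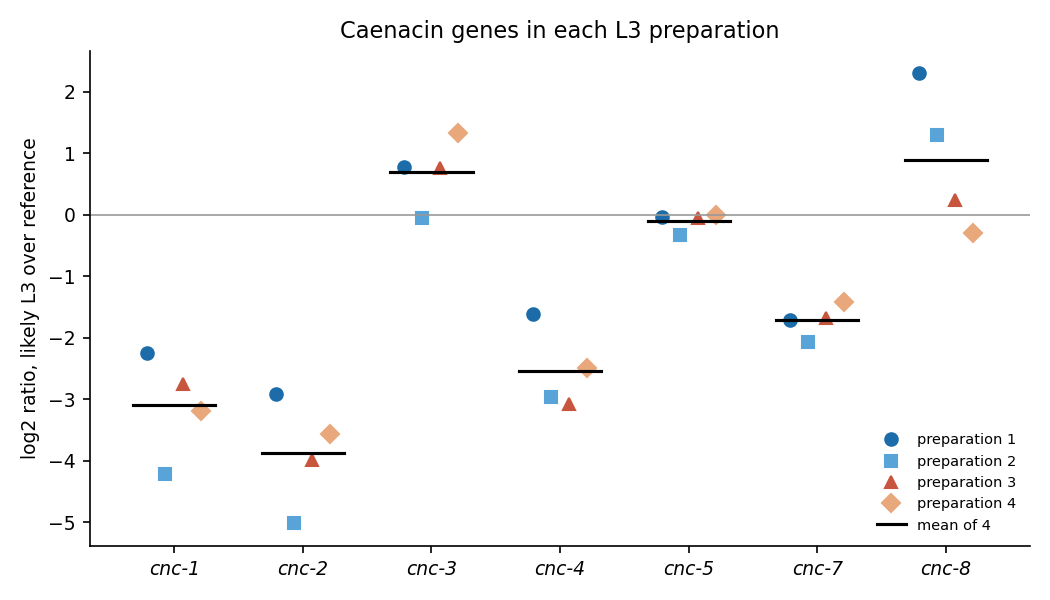
Log2 ratio (likely L3 over reference, y axis) of the 7 measured caenacin genes (x axis) in the 4 L3 preparations (points), with the mean as a bar. cnc-1, cnc-2, cnc-4 and cnc-7 lie below -1.4 in every preparation, whereas cnc-3, cnc-5 and cnc-8 lie near or above 0.

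Next came the genes of the pathway that controls nlp-29. Of 20 genes listed 17 were measured, of which 1 was lower, 1 higher and 15 did not pass, with a median of -0.07, beside 10.8% lower and 8.31% higher among all genes tested. At an unadjusted p under 0.05, 4 were lower and 1 higher, beside 18.3% lower and 16.9% higher among all genes tested. No probe carried the names dcar-1, the receptor gene, or tpa-1, the protein kinase C gene, and these are not analysed here. gpa-12, the G-protein alpha subunit gene of the pathway, was the higher one, at 1.33, 1.56, 0.88 and 0.48 in preparations 1 to 4. Its mean was 1.06 ± 0.48 (SD, n = 4, limma adjusted p = 0.0191), and the call was lost without preparation 1 or 3 (adjusted p up to 0.0872).

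Genes of the p38 cascade itself lay near 0. The adaptor gene tir-1 had a mean of -0.23 ± 0.26, the kinase genes nsy-1, sek-1 and pmk-1 of -0.02 ± 0.42, -0.24 ± 0.18 and -0.21 ± 0.51, and the Tribbles-like kinase gene nipi-3 of -0.03 ± 0.28 (SD, n = 4 each). None of these 5 passed in limma (adjusted p from 0.291 to 0.949). The lower gene was vhp-1, which encodes a MAP kinase phosphatase, at -0.62 ± 0.13 (adjusted p = 0.0291), a call lost without any 1 preparation (adjusted p from 0.0512 to 0.112). Further down, sta-2 lay at -0.41, -0.34, -0.78 and -0.43 in preparations 1 to 4 and averaged -0.49 ± 0.20 (adjusted p = 0.0708), below 0 in every preparation but short of the threshold. snf-12, the transporter gene that acts with sta-2, lay at 0.19 ± 0.31 and the epidermal GATA factor gene elt-3 at -0.34 ± 0.29 (adjusted p = 0.468 and 0.208).

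**Figure D5:**
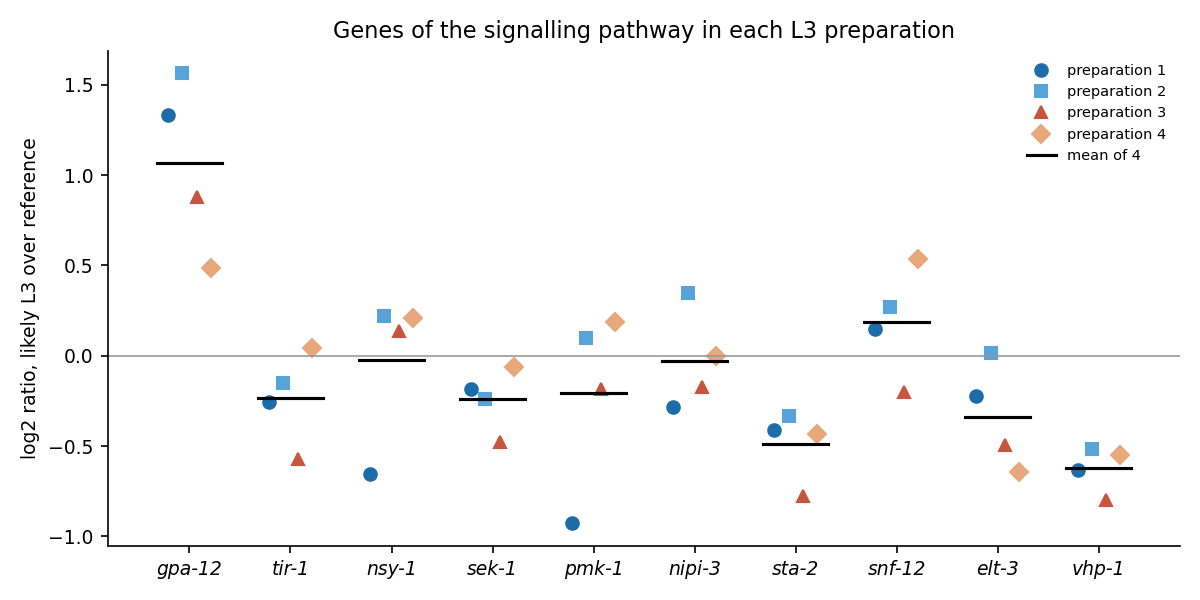
Log2 ratio (likely L3 over reference, y axis) in the 4 L3 preparations (points), with the mean as a bar, for 10 genes of the signalling pathway (x axis). Of the 10 means, 8 lie between -0.49 and 0.19; gpa-12 is higher, at 1.06, and vhp-1 lower, at -0.62.

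Genes of the DBL-1 pathway, which acts on the caenacins, were 1 lower and 1 higher of 9, with a median of 0.01. These counts are near the shares over all genes tested, of which 10.8% were lower and 8.31% higher. The receptor gene daf-4 lay at -0.81 ± 0.26 and lon-2, a glypican gene that restrains DBL-1, at 0.74 ± 0.38 (SD, n = 4 each; limma adjusted p = 0.0188 and 0.0409). The call of daf-4 was lost without preparation 1 or 3 and that of lon-2 without any 1 (adjusted p up to 0.0843 and 0.122).

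Damage to the cuticle's furrows, to its attachments and to the water balance are known triggers of nlp-29, so genes of these structures were set beside the group. Of 5 measured furrow collagen genes 4 were higher and 0 lower in limma (5 and 0 at an unadjusted p under 0.05), with a median of 1.38. Over all genes tested 8.31% were higher and 10.8% lower in limma (16.9% and 18.3% at an unadjusted p under 0.05). dpy-9 lay at 1.76 ± 0.83, dpy-8 at 1.58 ± 0.73 and dpy-3 at 1.38 ± 0.52 (SD, n = 4 each). The median of the furrow list was 1.06, 0.72, 2.12 and 2.13 in preparations 1 to 4. It was thus higher in the 2 preparations in which nlp-27, nlp-28, nlp-29 and nlp-30 were lowest, whereas nlp-31 and nlp-32 were lowest in preparation 2. No relation across 4 preparations was tested.

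Among 8 measured genes of the hemidesmosomes, which tie epidermis to cuticle and muscle, 3 were higher and 0 lower in limma (4 and 0 at an unadjusted p under 0.05), with a median of 0.74. Over all genes tested 8.31% were higher and 10.8% lower in limma (16.9% and 18.3% at an unadjusted p under 0.05). The 3 higher genes were the intermediate filament genes mua-6 (1.69 ± 0.46) and ifb-1 (1.09 ± 0.27) and the transmembrane receptor gene mua-3 (0.95 ± 0.35, SD, n = 4 each). The call of mua-3 was lost without preparation 3 or 4 (limma adjusted p up to 0.0696). The 2 probes of mua-3 disagreed, at 0.06 (adjusted p = 0.796) and 1.83 (adjusted p = 0.00736) when tested singly. The 7 genes of the osmotic response held 1 higher, the inositol transporter gene hmit-1.1 at 1.31 ± 0.49, and 1 lower, osm-11 at -0.89 ± 0.32. Their median was 0.25, and among all genes tested 8.31% were higher and 10.8% lower. The call of hmit-1.1 was lost without preparation 1 and that of osm-11 without 1, 3 or 4 (adjusted p up to 0.0526 and 0.0733).

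Of the fip, fipr and abf genes, small peptide genes that include fungus-induced ones, 15 of 42 were measured. The list held 4 lower and 2 higher genes, with a median of -0.28, beside 10.8% lower and 8.31% higher among all genes tested. fipr-24 lay at -2.24 ± 1.17, fip-1 at -1.64 ± 0.84 and fipr-21 at 1.56 ± 0.30 (SD, n = 4 each). Without preparation 3, 0 were lower and 1 higher in limma (5 and 2 at an unadjusted p under 0.05). The call of fipr-24 was lost without preparation 1 or 3 and that of fip-1 without 3 or 4 (limma adjusted p up to 0.0571 and 0.0619).

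Markers of the epidermis lay on both sides of 0. Of 11 measured 5 were higher and 0 lower in limma (5 and 1 at an unadjusted p under 0.05), with a median of 0.45 and 3 negative means, and preparation medians were 0.19, 0.43, 0.65 and 0.84. Over all genes tested 8.31% were higher and 10.8% lower in limma (16.9% and 18.3% at an unadjusted p under 0.05). The cuticle collagen genes dpy-7 and rol-6 lay at 1.30 ± 0.78 and 1.21 ± 0.56 and the hedgehog-related gene wrt-2 at 1.06 ± 0.74 (SD, n = 4 each). dpy-7 is also 1 of the 4 higher furrow collagen genes above. The call of dpy-7 was lost without preparation 1, 3 or 4 (limma adjusted p up to 0.0977) and that of rol-6 without preparation 1 (0.0676). That of wrt-2 was lost without preparation 1, 3 or 4, with scaled arrays and with a robust prior (limma adjusted p up to 0.142). The 3 negative means belonged to genes of epidermal fate and junctions, named after their values were seen. These were elt-1 at -0.49 ± 0.21, lin-26 at -0.33 ± 0.42 and ajm-1 at -0.16 ± 0.61 (SD, n = 4 each), none past the threshold. Other transcription factor genes of the list, also named after their values were seen, had positive means. nhr-23 lay at 0.89 ± 0.47 (limma adjusted p = 0.0323), bed-3 at 0.45 ± 0.90 and nhr-25 at 0.11 ± 0.73 (SD, n = 4 each). Without preparation 1 the list held 0 higher genes (5 at an unadjusted p under 0.05) and without preparation 3 or 4 it held 1.

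Neuronal genes and the nlp genes outside the group were lower in part. Of 15 neuron markers 5 were lower and 0 higher in limma (7 and 0 at an unadjusted p under 0.05), with a median of -0.38 and preparation medians of -0.59, -0.50, -0.54 and -0.04. Among all genes tested 10.8% were lower and 8.31% higher in limma (18.3% and 16.9% at an unadjusted p under 0.05). ida-1, a dense core vesicle gene, lay at -1.03 ± 0.37, and the peptide-processing enzyme genes egl-3 and egl-21 at -0.98 ± 0.33 and -0.93 ± 0.31 (SD, n = 4 each). The call of each was lost without preparation 1 or 3, where 0 neuron markers passed (6 and 5 were lower at an unadjusted p under 0.05). The 47 other nlp genes held 24 lower and 2 higher, with a median of -0.74 and preparation medians of -0.35, -0.90, -1.11 and -0.39. Without preparations 1 to 4 in turn, 15, 13, 9 and 17 of the 47 were lower and 0 higher in limma (3 to 5 higher at an unadjusted p under 0.05). Among all genes tested, 5.52%, 7.65%, 5.06% and 8.23% were then lower in limma. The part of neuronal transcripts in the values of the epidermal nlp genes was not tested.

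Transcripts with similar values were found by the root-mean-square difference of log2 ratios over the 4 arrays, among 14557 other named genes. Nearest to the median profile of the 6 members were ify-1, the securin gene, at 0.14, then C50F4.8, K04C2.3, B0228.6 and the transthyretin-related gene ttr-29, at 0.24 to 0.26. All 6 members were themselves farther from this median profile, with nlp-30 at 0.32, nlp-31 at 0.52, nlp-27 at 0.56, nlp-29 at 0.61, nlp-28 at 0.88 and nlp-32 at 1.19, so it stands for no single member. Nearest to nlp-29 were numr-2 (0.22) and C35C5.9 (0.30), then the member nlp-28 at 0.31, followed by the Y-box protein gene cey-2 (0.37), the metallothionein gene mtl-1 (0.37) and C30F12.3 (0.39). The remaining members were farther from nlp-29, at 0.90 for nlp-30 and 1.098 to 1.13 for nlp-32, nlp-27 and nlp-31. Members of the run are similar in sequence and probe sequences were not analysed here, so a probe may also report transcripts of its neighbours, which was not tested.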

How the data were processed

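RNA of 4 L3 preparations, named as mRNA in the source labels, was measured against a mixed reference, 1 two-colour array each. Each deposited value is the log2 ratio of an array's channels: on every array at least 99.96% of the unlogged values fell on steps of 0.001, with a tolerance of 0.02 of a step. Column medians were 0.02, 0.00, -0.03 and -0.01; how the authors corrected background, normalized and filtered spots is not stated in the sources used here.

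Of 21632 probes, 16450 had 1 gene symbol, 247 several and 4935 none in an older platform annotation; 16360 symbols were updated through Entrez numbers to RefSeq WBcel235. No coordinates are printed, because no source used here names a genome build for the probes. Probes of a gene were averaged, arrays were centred on their median, and genes with a value on at least 3 of 4 arrays were tested with limma 3.58.1 in R 4.3.3 (intercept only, eBayes, two-sided, Benjamini-Hochberg over all 19943, threshold 0.05). The fit was also run on simulated data with independent normal noise, unlike arrays that share a reference, and its outcome is not used here. Alternatives were values as deposited, scaled arrays, quantile normalization, other minimums of arrays, single probes, preparations left out, title month as a block or within months, and a robust prior.

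Named genes were all members and caenacins, a set core and all passing genes of the signalling list, up to 3 passing genes of each other list, 10 flanking genes, the 5 genes nearest to each of 2 profiles, and vit-2, vit-5 and col-19. Members and lists were chosen with earlier results of these data known. Leave-one-out fits kept genes with at least 2 values.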

Additional observations from a re-analysis of the deposited data

Results flagged for a closer look

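Of 65 named genes measured on 4 arrays, 3 had 1 preparation far from the other three by Dixon's test for groups of 4 at the 95% level. The genes nhr-23, bed-3 and nhr-25 were not among the 65. Chance alone flags about 1 of 20 groups, so 3 is no more than chance gives. nlp-31 lay at -0.15 in preparation 1, the highest, with a gap of 0.895 of its range to the next preparation. nsy-1 lay at -0.65 in preparation 1, the lowest, with a gap of 0.904 of its range. elt-1 lay at -0.18 in preparation 4, the highest, with a gap of 0.849 of its range.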

How the results depend on the processing

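The 6 epidermal nlp genes kept a negative mean in each of the 14 alternative settings, and nlp-28 and nlp-32 passed in all 14. The sign is no test of robustness: all 6 genes were negative on 4 of 4 arrays, so any subset of arrays gives a negative mean. Other minimums of arrays, title month as a block and a robust prior leave these means unchanged. With 1 preparation left out, 2 to 6 members and 1895 to 2733 of all genes passed, beside 5 and 3808. Means then lay between -1.22 and -0.68 for nlp-27, -2.33 and -1.59 for nlp-29, -1.42 and -0.90 for nlp-30, and -1.24 and -0.86 for nlp-31. In preparations 1 and 2 alone 2 members and 1579 genes passed, and the calls of nlp-29 (-1.16), nlp-30 (-0.61) and nlp-31 (-0.72) were lost; in 3 and 4 alone 1744 genes passed and nlp-27 (-1.40) was gained. nlp-27 was also gained with title month as a block (-0.94, adjusted p = 0.0437). The block correlation, shared by all genes, was negative (-0.117), and 4490 genes passed. It may not hold for nlp-27, with means of -0.47 in preparations 1 and 2 and -1.40 in 3 and 4. Fits on fewer arrays called fewer of all genes but not always fewer members, since 6 passed without preparation 1 and in 3 and 4 alone. The causes of these changes were not tested. The order of neighbours turned for nlp-32 minus nlp-28 with scaled arrays (0.035), in 3 and 4 alone (0.91) and with 1 preparation left out (from -0.52 to 0.23), for nlp-30 minus nlp-31 in 1 and 2 alone (0.11), and for nlp-31 minus nlp-27 with scaled arrays (0.056), quantile normalization (0.0077), in 3 and 4 alone (0.19) and with 1 left out (from -0.21 to 0.11). No paired analysis was possible because there is 1 group.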
